A study of Saccharomyces cerevisiae with 2 samples.

Results

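The RNA exosome core genes of Saccharomyces cerevisiae were described here for their Vid22 ChIP-seq peaks. These are the 10 genes RRP4, RRP40, SKI6, RRP42, RRP43, RRP45, RRP46, MTR3, CSL4 and DIS3, found by symbol among the 6002 protein-coding genes of the 16 nuclear chromosomes in the RefSeq annotation of sacCer3. The group was chosen by the fold enrichment of the RRP42 peak, one of the strongest of the list, so that value is given as a description and supports nothing. Chromatin of a strain whose Vid22 carries a C-terminal 13Myc tag was immunoprecipitated with an anti-MYC antibody. The negative control came from wild type cells with no tag, although its labels list no antibody. According to the methods the strains derive from BY4741, BY4742 or BY4743, cells grew in YEP medium with sugar, both cultures were cross-linked with formaldehyde, and DNA of 2 ChIP experiments was pooled into 1 library per condition. There are therefore no replicates, no test was made, and every value below belongs to this single pair of libraries.

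The RNA exosome degrades and trims RNA from its 3′ end. It matures ribosomal and small nucleolar RNAs in the nucleus, removes faulty and cryptic transcripts there, and turns over mRNA in the cytoplasm. Its core is a barrel: Ski6 (also Rrp41), Rrp42, Rrp43, Rrp45, Rrp46 and Mtr3 form a ring, Rrp4, Rrp40 and Csl4 form a cap that guides RNA into it, and Dis3 (also Rrp44) below the ring holds the exonuclease and endonuclease activity. In yeast the ring itself is catalytically inactive. Vid22 forms a complex with its paralog Env11 and with Tbf1, an essential Myb-domain protein for which the study gives TAGGG as the consensus, and the study examined Vid22 at sequences predicted to form G-quadruplexes (G4).

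A peak counted for a gene when it overlapped the gene or the 1000 bp upstream, and had a -log10 q of at least 9. This is a literal reading of the false discovery rate in the study's methods. The study reports fewer peaks than this rule keeps. Its number is the one left by a -log10 q of at least 10, which therefore appears to be its own cut. By the rule used here RRP42 and DIS3 had a peak, and the other 8 members had none. That is 2 of 10 members against 13.8% of all protein-coding genes (829 of 6002). RRP42, for whose peak the group was chosen, is part of this and every later count of members with a peak. These counts are therefore descriptions and show no excess at the members. This share also counts genes that merely neighbour a wide peak. With a -log10 q of at least 10 the same 2 members had a peak, against 13% of all genes. Both peaks had a fold enrichment above 3, as at 5.33% of all genes (320). For both the summit itself lay in this window, as it did at 9.7% of all genes (582). RRP45 and MTR3 touched weaker peaks of the list, so that 4 of 10 members overlapped any of the 811 deposited peaks against 20.6% of all genes. The remaining 6 members, SKI6, RRP43, RRP46, RRP4, RRP40 and CSL4, overlapped no peak at any q-value.

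**Figure D1:**
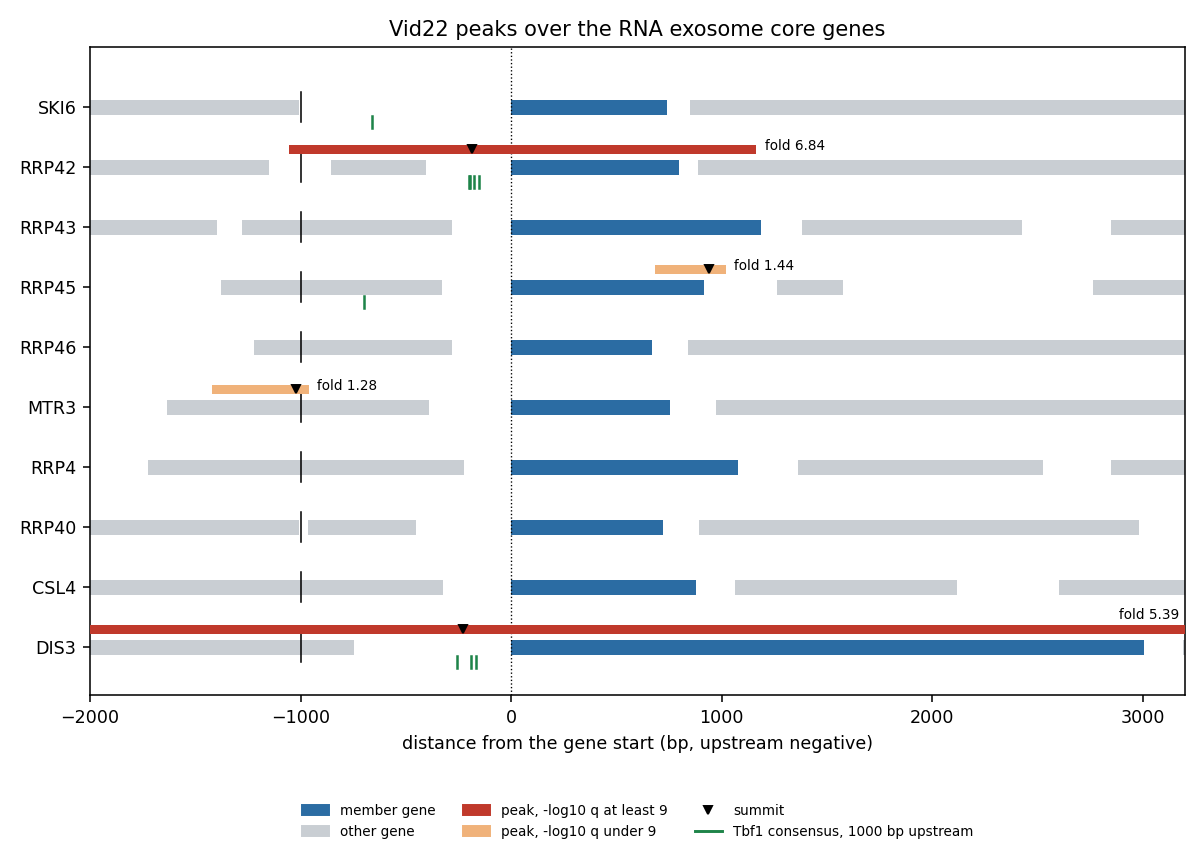
Each row is an exosome core gene aligned at its gene start, with distance in bp on the x axis; ring genes are above, then cap genes, then DIS3, and the short vertical line marks 1000 bp upstream. Red bars are peaks with a -log10 q of at least 9, at RRP42 (fold 6.84) and DIS3 (fold 5.39, the bar runs past both ends of the axis), orange bars are weaker peaks at RRP45 and MTR3, and green ticks are Tbf1 consensus sites, which form clusters in the RRP42 and DIS3 rows.

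The sequences at the 2 strong summits are shown first because they hold what the rule did not use. Each is the summit with 75 bp on either side, from the sacCer3 sequence of RefSeq, on the strand of the gene and 5′ to 3′, with TAGGG and its reverse complement CCCTA in capitals. The RRP42 stretch is chrIV:264221-264371 and the DIS3 stretch chrXV:285580-285730, both on the reverse strand.
RRP42 summit: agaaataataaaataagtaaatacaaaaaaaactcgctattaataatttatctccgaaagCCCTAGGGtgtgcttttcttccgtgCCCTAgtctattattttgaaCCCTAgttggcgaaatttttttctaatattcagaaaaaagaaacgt
DIS3 summit: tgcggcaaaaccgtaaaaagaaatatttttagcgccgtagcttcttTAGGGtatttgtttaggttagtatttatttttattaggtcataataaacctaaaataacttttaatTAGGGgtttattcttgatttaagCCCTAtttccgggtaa
The RRP42 stretch holds 4 matches, 3 of them on the strand opposite to the gene, and the pair CCCTAGGG is read on both strands at once. They fall within 50 bp, from 152 to 201 bp upstream of the gene start. The DIS3 stretch holds 3 matches within 94 bp, from 165 to 258 bp upstream, with 2 on the strand of the gene.

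RRP42 (YDL111C) encodes a ring subunit and lies on the reverse strand of chromosome IV from 263313 to 264110. Its peak spans 262946 to 265164, or 2219 bp, with the summit at 264296. That is 186 bp upstream of the gene start, in the 401 bp that separate RRP42 from TMA17. Its fold was 6.84, 8th among the 811 peaks and tied with the PSP2 peak, and the -log10 q was 282.2. The peak reached 1350 bp from the summit toward and past RRP42, and 868 bp to the other side. It covered all of RRP42, all of TMA17, and 6.50% of TRM3, a tRNA methyltransferase gene whose end faces that of RRP42. TMA17 codes for a chaperone of proteasome assembly and points the same way as RRP42, so its end and not its start faces the summit, and no gene shares the RRP42 promoter.

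DIS3 (YOL021C), the catalytic subunit, is on the reverse strand of chromosome XV from 282421 to 285426. Its peak runs from 281961 to 289296, 7336 bp, with the summit at 285655, and it had a fold of 5.39 (54th of the list) and a -log10 q of 230.4. The peak extended almost evenly, 3694 bp and 3641 bp to either side. Here the promoter is shared: TAT2, which encodes a permease for tryptophan and tyrosine, starts 745 bp away on the other strand. The summit lies between both starts, 229 bp upstream of DIS3 and 517 bp upstream of TAT2. The peak took in 5 whole genes, namely DIS3, TAT2, YOL019W-A and the tRNA genes SUF17 (tRNA-Gly) and SUP3 (tRNA-Tyr), and 24.1% of TOS7. The tRNA genes start 3491 bp (SUF17) and 2537 bp (SUP3) from the summit, on opposite sides of it.

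**Figure D2:**
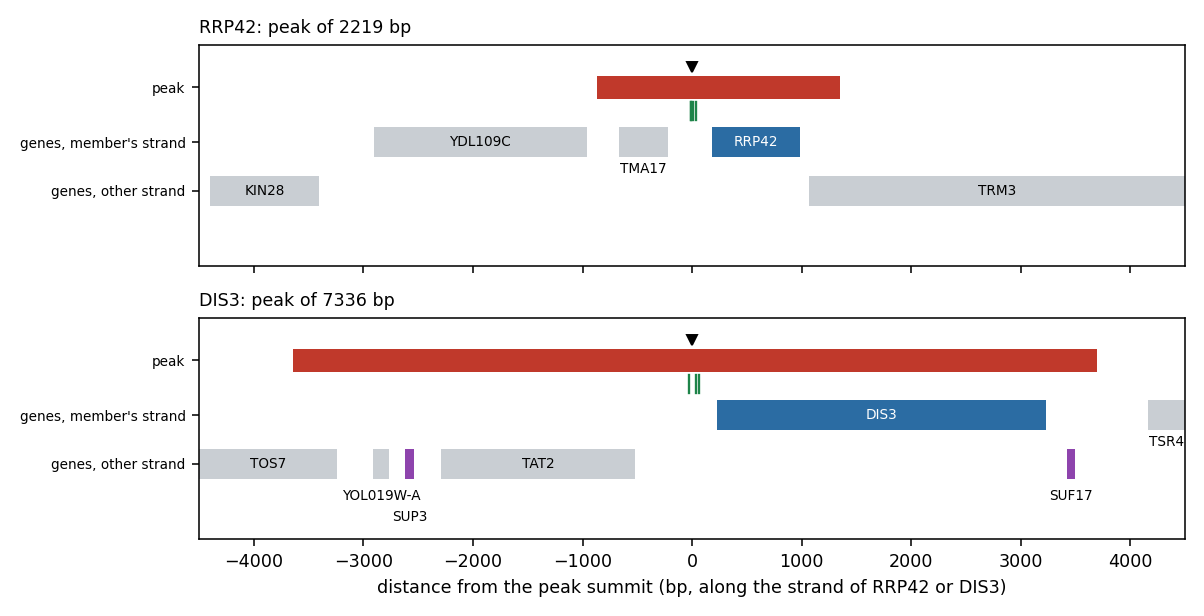
Maps of the RRP42 and DIS3 loci, with distance from the peak summit in bp on the x axis, along the strand of the named gene. Red bars are the peaks (2219 and 7336 bp), the triangle is the summit, green ticks are Tbf1 consensus sites, purple boxes are tRNA genes; the RRP42 summit faces the end of TMA17 and the DIS3 summit lies between the starts of DIS3 and TAT2.

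The reads behind these folds can be recovered from the list. MACS2 computes the fold as the pileup of extended reads plus 1 over the control level plus 1, and the p-value as a Poisson tail of the same 2 quantities, so both can be solved for each peak. With the Vid22-13Myc pileup scaled by 0.961, the solution was within 0.01 of a whole number of reads in all 811 peaks, and the largest deviation was 0.00312. A second whole solution existed for 23 peaks, none of them at a member. At RRP42 the summit had 632 Vid22-13Myc reads over a control level of 88.0, and at DIS3 it had 632 over 111.8. Reads are given throughout before the scaling, while the fold uses the scaled pileup, so the fold is not the direct ratio of the printed values. Both stood at the most frequent summit height of the list, which is read as the highest possible. The shortest peak width, 316 bp, is taken as the length to which reads were extended. With PCR duplicates removed, 1 read per start position on each strand then gives 632 at most. The scale of 0.961 was set by equating the most frequent height with 632 reads, so that number is an assumption. The whole-number fit of the other peaks was not set in this way. In all, 49 peaks stood at this ceiling. Their folds ran from 3.64 to 6.98 and followed from the control level alone, which ran from 166 down to 86.1. The fold of RRP42 was 1.27 times that of DIS3, with a control level at DIS3 1.27 times that at RRP42, so the folds do not rank Vid22 recovery at these 2 genes. Both members were among the 3.63% of all genes (218) that overlap a ceiling peak.

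**Figure D3:**
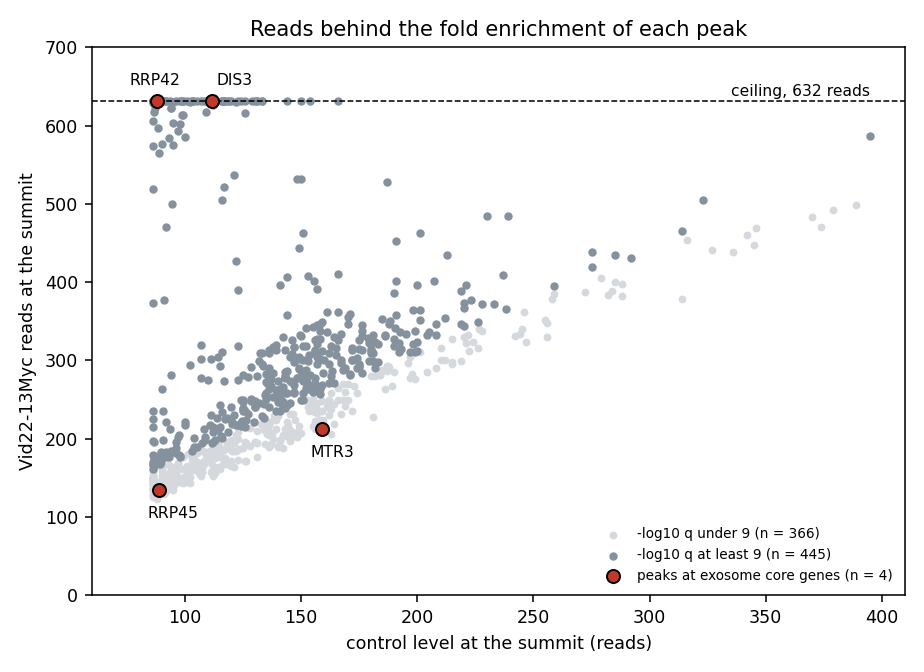
Each point is one of the 811 peaks, with the control level at its summit on the x axis and the Vid22-13Myc reads at the summit on the y axis, both solved from the deposited fold and p-value. RRP42 and DIS3 lie on the dashed ceiling of 632 reads at control levels of 88.0 and 111.8, while RRP45 (134 reads) and MTR3 (212 reads) lie at the lower edge of the cloud.

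Peak width is not bound by this ceiling, and in it the 2 genes were far apart. The 49 ceiling peaks were 2098 to 16209 bp wide, with a median of 5441 bp. RRP42 had the 2nd narrowest of them and DIS3 the 8th widest, 3.31 times the width of RRP42. Among these 49, only the PET123 peak (2098 bp), at a mitochondrial ribosomal protein gene, was narrower than that of RRP42. Peaks with 631 reads, just under the ceiling, were 1997, 2339, 2998 and 3498 bp wide, the narrowest again below that of RRP42. The rank of RRP42 thus depends on counting only peaks exactly at the ceiling. Among the 445 peaks with a -log10 q of at least 9, whose median width was 527 bp, RRP42 ranked 68th by width and DIS3 8th. Whether several bound sites or one lie under the DIS3 peak is not resolved, since the list gives 1 summit per peak.

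**Figure D4:**
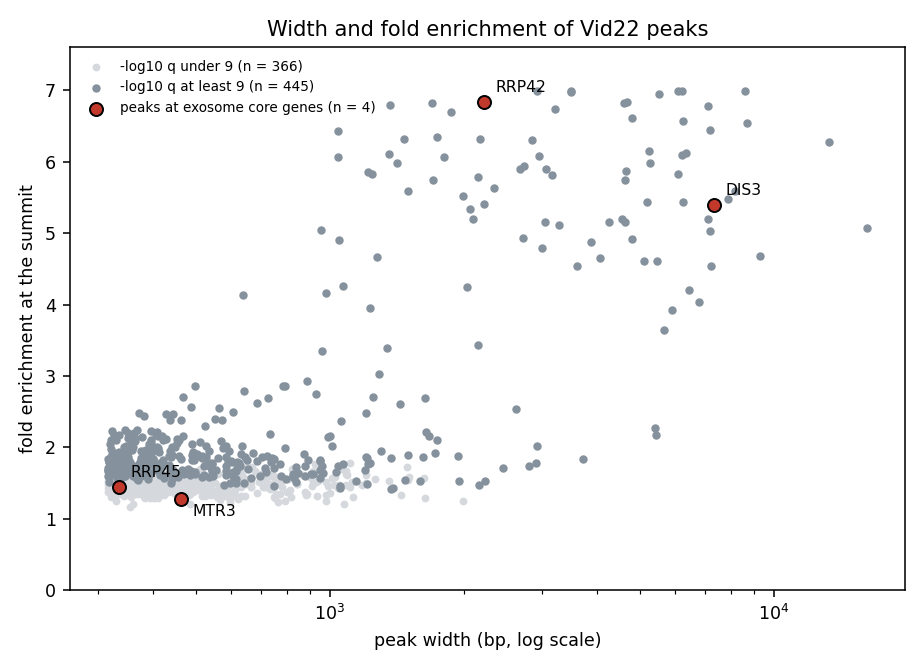
Fold enrichment at the summit (y axis) against peak width in bp (x axis, log scale) for all 811 peaks, with the 4 peaks that touch exosome core genes in red. RRP42 (2219 bp, fold 6.84) is higher and narrower than DIS3 (7336 bp, fold 5.39), and RRP45 and MTR3 lie among the short peaks with a fold below 1.5.

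Likeness to the RRP42 peak is given as a description only, since it uses the fold by which the group was chosen and which has reached its ceiling there. The peaks most like it, by the distance in log2 fold and log2 width among the 445 peaks, were at NUP1, ALA1 and NTA1. The NUP1 peak, at the gene of a nuclear pore protein, was 2180 bp wide with a fold of 6.32 and 630 reads, at a distance of 0.117. The ALA1 peak, at the alanyl-tRNA synthetase gene, had 1876 bp, a fold of 6.70 and 606 reads (distance 0.244). The NTA1 peak, at an amidase gene, had 2156 bp, a fold of 5.78 and 575 reads (distance 0.246). All 3 summits lay 128 to 320 bp upstream of the nearest gene start and had 1 to 3 TAGGG within 100 bp, against 186 bp and 4 for RRP42.

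The weak peaks at the other ring genes were of another kind. RRP45 (YDR280W, chromosome IV, 1020747 to 1021664, forward strand) touched a peak of 335 bp at its end. The summit, at 1021686, is 939 bp downstream of the gene start and just past the end of the gene, with 134 reads over a control level of 89.0, a fold of 1.44 and a -log10 q of 3.12. Counting error alone gives those reads, before the scaling, an exact Poisson 95% interval of 112 to 159. The scaled pileup that enters the fold was 128.8. The peak covered 25.4% of the gene and left its promoter free. MTR3 (YGR158C, chromosome VII, 805269 to 806021, reverse strand) has a peak of 461 bp at the far edge of its upstream window, with only 41 bp inside. That summit, at 807041, lies within the coding sequence of NSR1, the yeast nucleolin gene, which is next to MTR3 and points the same way. It had 212 reads (interval 184 to 243) over a control level of 159, a fold of 1.28 and a -log10 q of 2.25, which is 798th of 811 by fold. Neither peak passed the threshold, and neither has TAGGG within 100 bp of its summit.

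The members without a peak include 3 ring genes. SKI6 (YGR195W, chromosome VII, 888882 to 889622) shares 1006 bp with XKS1, the xylulokinase gene, which starts on the other strand. RRP43 (YCR035C, chromosome III, 191834 to 193018) starts 278 bp from the ribokinase gene RBK1, and RRP46 (YGR095C, chromosome VII, 675671 to 676342) starts 278 bp from TPC1, a mitochondrial carrier gene. The nearest peak with a -log10 q of at least 9 was 8939 bp from the SKI6 window, 13117 bp from that of RRP43 and 53679 bp from that of RRP46. These peaks had folds of 2.00, 1.76 and 1.66 and widths of 360, 1218 and 320 bp, and the gene starts nearest to their summits were those of a tRNA-Trp gene, the snoRNA gene SNR65 and a tRNA-Asn gene.

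The 3 cap genes had no peak either. RRP4 (YHR069C, chromosome VIII, 233579 to 234658) starts 222 bp from TRM5, a tRNA methyltransferase gene on the other strand. The nearest peak past the threshold, with a fold of 1.71 at a tRNA-Phe gene, was 2037 bp from its window. RRP40 (YOL142W, chromosome XV, 55558 to 56280) starts 453 bp from RIB4, a riboflavin synthesis gene, and the nearest such peak was 32838 bp away. CSL4 (YNL232W, chromosome XIV, 214923 to 215801) lies behind BNI4, a bud neck scaffold gene that points the same way and ends 322 bp before it, and the nearest such peak was 86872 bp away, the farthest of the 10. The windows of all 10 members consist wholly of positions that start a 50-mer unique in the genome, so reads with a single best alignment could be placed everywhere in them.

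A divergent promoter did not separate members with a peak from those without. Of the 10 members, 6 are divergent from the gene upstream (RRP4, RRP40, SKI6, RRP43, RRP46 and DIS3), and of these DIS3 had a peak. The other 4 (RRP42, RRP45, MTR3 and CSL4) are in tandem, and of these RRP42 had one.

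TAGGG close to the gene start was found at both members with a strong peak and at no other. The sequence was searched on both strands, overlapping matches included. In the 300 bp upstream of the gene start, RRP42 had 4 matches, DIS3 had 3 and the other 8 members had 0. At least 1 match is found at 21.6% of all protein-coding genes in this window, at least 2 at 3.78% and at least 3 at 0.766% (46 genes). Of those 46 genes, 30 overlap a peak with a fold above 3, or 65.2%, against 10.5% of the genes with at least 1 match. The 46 include RRP42 and DIS3, and they are also part of the genes with at least 1 match. A wide peak can count for several genes, and neighbouring genes can share matches, so the genes are not independent. In the whole 1000 bp upstream, SKI6 and RRP45 had a single match each and 55.7% of all genes had at least 1. The SKI6 match lies 659 to 663 bp upstream and that of RRP45 695 to 699 bp upstream, inside the coding sequence of RNH202, an RNase H2 subunit gene, and no peak lies over either. All 49 ceiling peaks, 85 of the 90 peaks with a fold above 3 and 156 of the 445 have TAGGG within 100 bp of the summit. These groups are nested, and no share was computed for windows of this length away from summits. A match is a description of sequence and not a bound site, and Tbf1 was not measured in these libraries. The study mutated both Tbf1 consensus sites at SKN7, whose peak is among the 49, and followed Vid22 by ChIP-qPCR. It reports no significant change in Vid22 binding there, and binding that still depended on the G4 sequence. No such mutation was made at RRP42 or DIS3.

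The 9 matches at members are printed with 3 bases on either side, read on the strand that carries TAGGG, to show their flanks. Positions are sacCer3.
RRP42, chrIV:264259-264269, forward strand: aacTAGGGttc
RRP42, chrIV:264279-264289, forward strand: gacTAGGGcac
RRP42, chrIV:264301-264311, reverse strand: cccTAGGGtgt
RRP42, chrIV:264304-264314, forward strand: cccTAGGGctt
DIS3, chrXV:285588-285598, forward strand: aaaTAGGGctt
DIS3, chrXV:285611-285621, reverse strand: aatTAGGGgtt
DIS3, chrXV:285677-285687, reverse strand: cttTAGGGtat
SKI6, chrVII:888216-888226, reverse strand: attTAGGGgat
RRP45, chrIV:1020045-1020055, reverse strand: gtgTAGGGata
All 4 at RRP42 have C before the T, and no match at the other members does. For the overlapping pair in CCCTAGGG, that C is part of the match on the other strand.

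Predicted G4 elements, taken as at least 4 tracts of GGG on one strand with loops of 1 to 25 bases, number 635 in the genome. They were found here by a sequence search and are not the sets used in the study. The nearest was 4222 bp from the edge of the RRP42 peak and 15125 bp from that of DIS3. An element is overlapped by 84 of the 445 peaks (18.9%) and by 24 of the 49 ceiling peaks (49%), so a peak without one is common, at the ceiling too. These shares are not matched for width, and the median width was 5441 bp at the ceiling against 527 bp for the 445. No share expected for random positions was computed here. The study, with its own peaks and elements, reports significant enrichment of Vid22 peaks near predicted G4 elements, which these shares do not test. In the window of the gene and 1000 bp upstream, 1 of the 10 members, RRP40, had an element, as did 12.5% of all protein-coding genes (750). It lies inside the coding sequence, 17 bp after its first base, at chrXV:55575-55643 on the strand opposite to the gene, and is shown with the GGG tracts in capitals as the element that lies in a member.
RRP40 element: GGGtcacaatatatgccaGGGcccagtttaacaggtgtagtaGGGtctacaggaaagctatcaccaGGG
The nearest peak with a -log10 q of at least 9 was 33855 bp from this element, and 113 of the 635 elements (17.8%) are overlapped by such a peak. For the other members the nearest element was between 1916 bp (MTR3) and 30261 bp (RRP46) from the window.

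Many yeast genes of ribosome and rRNA maturation carry the PAC element, whose core is GATGAG, in their promoters. GATGAG was found on either strand in the 300 bp upstream of 6 of the 10 members, and of 19.1% of all protein-coding genes. The 6 are RRP4, RRP40, RRP43, MTR3, CSL4 and DIS3, so that RRP42, the member with the highest fold, has none and DIS3 has 1. AAAATTTT, the core of the RRPE element that often goes with PAC, was found upstream of SKI6 and DIS3 and of 9.41% of all genes. The stretches below show GATGAG in capitals with 15 bases on either side, on the strand that carries it; the sequences of RRP40 and DIS3 are on the strand opposite to the gene.
RRP4, chrVIII:234757-234792: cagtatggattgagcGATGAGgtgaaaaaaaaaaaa
RRP40, chrXV:55505-55540: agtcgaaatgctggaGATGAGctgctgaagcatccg
RRP43, chrIII:193057-193092: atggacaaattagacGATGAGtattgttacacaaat
MTR3, chrVII:806197-806232: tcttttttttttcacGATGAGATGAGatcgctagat
CSL4, chrXIV:214807-214842: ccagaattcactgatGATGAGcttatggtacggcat
DIS3, chrXV:285527-285562: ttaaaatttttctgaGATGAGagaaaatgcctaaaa
At RRP4 the match is preceded by GC, as in the longer form of PAC, and at MTR3 2 matches share 1 base. At DIS3 it lies 116 to 121 bp upstream, between the gene start and the TAGGG cluster.

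Genes that work with the exosome were counted in the same way. The list held 20 genes: the nuclear partners MTR4, RRP6, LRP1 and MPP6, the polyadenylation complex TRAMP (PAP2, also Trf4, with TRF5, AIR1 and AIR2), the cytoplasmic Ski genes (SKI2, SKI3, SKI8 and SKI7), the Nrd1 complex (NRD1, NAB3 and SEN1), the adaptors NOP53 and UTP18, and the 5′ to 3′ exonuclease genes XRN1, RAT1 and RAI1. Of these, 1 of 20 overlapped a peak with a -log10 q of at least 9, against 13.8% of all genes, and 3 of 20 overlapped any peak, against 20.6%. Nothing particular to the list is read from these counts. The one peak past the threshold touches the upstream window of NAB3, an RNA-binding protein of transcription termination, by 100 bp. Its summit is 1025 bp upstream of NAB3, beyond COA2, the cytochrome oxidase assembly gene whose start is the nearest. The NAB3 peak had a fold of 1.73 and a -log10 q of 9.25. It drops out when the threshold is raised to 10, which leaves 0 of the 20 genes with a peak. NRD1, the partner of NAB3, had a peak of 513 bp with the summit 71 bp upstream of its start, 247 reads over a control level of 154, a fold of 1.54 and a -log10 q of 8.16, just under the threshold. SKI8, a subunit gene of the Ski complex, had a peak of 751 bp in its coding sequence, with a fold of 1.58. None of the 20 overlapped a peak with a fold above 3, where all genes have a share of 5.33%.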

How the data were processed

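ChIP-seq was made on 1 Vid22-13Myc library and 1 control library, each from 2 pooled ChIP experiments. Per the labels and methods, the authors used Bowtie to align reads of 50 bp to sacCer3 (single best alignment), SAMtools rmdup against PCR duplicates, and MACS2 for the peaks; versions are not given in the sources used here. Only the peak list of the Vid22-13Myc library was analysed, and the control entered through the calling. Peak names hold the words IP2vsIP1, so the caller compared 2 libraries named as IPs. The deposited integer score is 10 times the -log10 q-value. The deposited fold (ratio) and the deposited -log10 p-value and q-value are those at the summit. The chromosome accessions of the list are those of the reference.

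Positions are 1-based. Genes are the RefSeq annotation, which holds no UTR features, so a gene start is the start of the coding sequence. Members, lists, threshold and alternatives were chosen with earlier results of these data known. The genes named are all members, the gene upstream of each, those under a member's peak, the nearest peaks, the cofactor genes with a peak and the 3 peaks most like that of RRP42. Alternatives covered the threshold, the window, the kind of overlap and the merging of peaks. Reads at a summit were solved numerically (accepted within 0.01 of a whole number, checked on simulated data). The simulated data used the same scale, so they do not check the scale itself. Figures were drawn with matplotlib 3.10.9, and values computed with scipy 1.17.1, pandas 2.3.3 and numpy 2.4.6 under Python 3.11.15.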

Additional observations from a re-analysis of the deposited data

How the results depend on the processing

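RRP42 and DIS3 were the members with a peak under all alternatives that kept a threshold on q: a -log10 q of at least 10 or 20, the summit or at least 50% of the peak in the window, 500 bp upstream, the upstream region alone, and merging peaks less than 500 bp apart. With every deposited peak the count of members was 4 (RRP45 and MTR3 added). Merging left the RRP42 peak at 2219 bp and a fold of 6.84. The count of cofactor genes, 1 by the rule used, was 3 with every deposited peak and 0 with a -log10 q of at least 10 or 20, with the summit in the window or with 500 bp upstream, since the NAB3 peak is near the threshold and at the window's edge. No paired analysis was possible because each condition has 1 library. Reads at the ceiling of 632 cannot show differences in recovery above it.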
